A study of Mus musculus with 9 samples.

Results

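The genes described here encode enzymes that free arachidonic acid from membranes and turn it into eicosanoids, the leukotrienes, prostaglandins and thromboxane. They were chosen by name: a gene entered if a probe set on the array carried its symbol alone in the platform annotation, and the brightest probe set would have stood for the gene. Of 10 names, 9 had such a probe set, each exactly 1, among 19938 genes measured in all, and Ptgs1, which encodes the constitutive cyclooxygenase, was not analysed here. Levels of these genes across the populations were known when the names were chosen, so their levels and differences are given as a description, without a test.

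RNA was measured on Affymetrix mouse gene arrays in 3 cell populations with 3 biological replicates each, 9 arrays in all, and each population was sorted from mice labelled CX3CR1 gfp+/-, in which a green fluorescent protein (GFP) reporter takes the place of 1 copy of the fractalkine receptor gene. The first population, T cell zone macrophages (TZM), came from lymph nodes and was sorted as GFP-high, MertK+ and CD11b+ cells lacking CD169. The second was microglia, the macrophages of the brain, sorted as GFP-high CD11b+ CD45+ cells, a gate that does not separate microglia from other brain macrophages. The third was CD8a+ dendritic cells (DC), CD64-negative cells high for CD11c and MHC class II, whose source is the lymph node in the sample labels and the spleen in the sorting protocol. The age and sex of the mice, and whether animals were pooled, are not given in the sources used here. Values are log2 levels from robust multi-array averaging (RMA), means are given ± SD over 3 arrays, and standard errors (SE) of log2 differences come from 1 limma fit over all genes and arrays.

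Eicosanoid synthesis starts when a phospholipase A2 cuts a fatty acid from a phospholipid. Arachidonic acid then takes one of a few routes. In the leukotriene route the protein encoded by Alox5ap presents it to the lipoxygenase encoded by Alox5, and the unstable product is turned into a chemoattractant by the Lta4h hydrolase or into cysteinyl leukotrienes by the Ltc4s synthase. In the cyclooxygenase route Ptgs1 and Ptgs2 make an endoperoxide, from which Hpgds makes a D-type prostaglandin and Tbxas1 makes thromboxane. Macrophages and mast cells are known sources of these lipids, and the secreted phospholipase of Pla2g2d is known in mice from lymphoid tissue.

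By the means of marker lists, the sorted cells carried the markers of their labels. The mean level of 6 macrophage markers ran from 10.18 to 10.55 over the TZM arrays, from 10.25 to 10.44 over the microglia arrays and from 4.75 to 4.94 over the DC arrays. The mean of 6 CD8a+ DC markers ran from 5.39 to 5.53 in TZM, from 4.79 to 4.83 in microglia and from 9.68 to 9.75 in DC, and that of 6 microglia markers from 6.70 to 6.77, 10.86 to 11.02 and 4.96 to 5.06 in the same order. Some of these markers were used in the sort. Single genes departed from the list means. In TZM the microglia markers Tmem119, P2ry12 and Siglech were at 9.18, 9.80 and 7.98. Sall1, Fcrls and Slc2a5 were at 4.48, 5.05 and 3.98 there. Siglech was at 8.32 in DC. The macrophage marker Timd4 was at 11.26 in TZM, 5.03 in microglia and 6.25 in DC. TZM replicate 2 and microglia replicate 2 stood apart from their groups in markers of other cells, and values with and without them are given for the members that this touched. TZM replicate 2 was also the lowest TZM array for all 6 macrophage markers, though Mertk was at 10.02 in each array.

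The members differed in the populations where they were high. Pla2g2d was high in TZM alone, and Alox5ap was lower in TZM than in both other populations. Pla2g4a and Hpgds were high in TZM and microglia and low in DC. Alox5, Ltc4s and Tbxas1 were highest in microglia, and Lta4h and Ptgs2 differed by less than 1 (log2) between the means of any 2 populations.

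**Figure D1:**
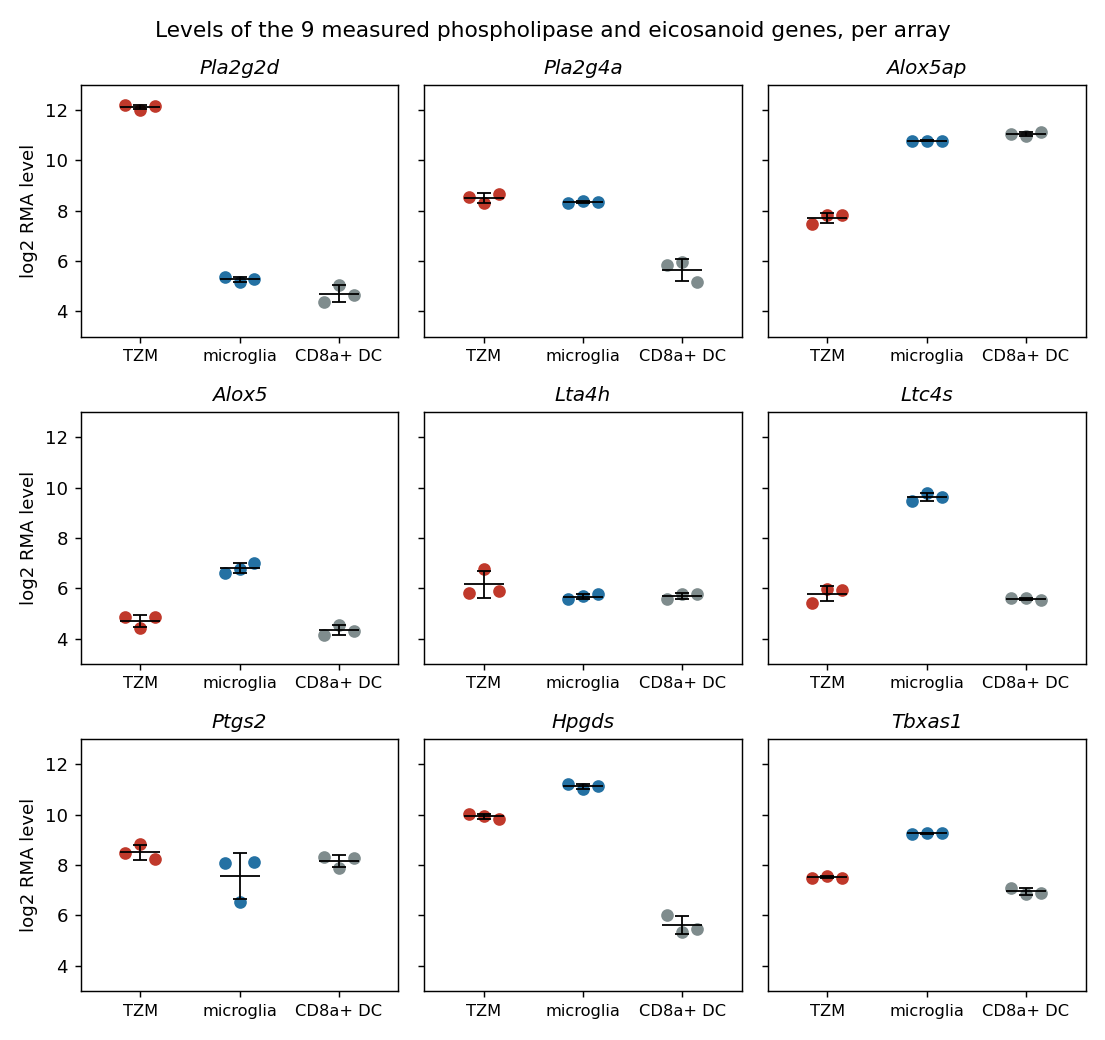
Log2 RMA level of the 9 measured members in each array (points), with the mean (long line) and SD (bar) of 3 arrays, for TZM, microglia and CD8a+ DC from left to right. Pla2g2d sits near 12 in TZM and near 5 in the other populations, while Alox5ap sits between 7.49 and 7.84 in TZM and above 10.7 in the others.

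Promoter windows are shown for the 3 members with the widest span of population means that the sequence table holds, which were Pla2g2d, Hpgds and Ltc4s, and for Ptgs2 as a member with similar means. They are RefSeq windows of mouse build GRCm38.p6, each of 300 bases from 250 before to 50 after the annotated start, at chr4:138775485-138775784 (plus strand) for Pla2g2d, chr6:65144681-65144980 (minus strand) for Hpgds, chr11:50238483-50238782 (minus strand) for Ltc4s and chr1:150099781-150100080 (plus strand) for Ptgs2. Capitals mark the letters GAGGAAG, the core bound by the myeloid factor PU.1, on either strand, and TTGCGCAA, which C/EBP factors bind.
Pla2g2d: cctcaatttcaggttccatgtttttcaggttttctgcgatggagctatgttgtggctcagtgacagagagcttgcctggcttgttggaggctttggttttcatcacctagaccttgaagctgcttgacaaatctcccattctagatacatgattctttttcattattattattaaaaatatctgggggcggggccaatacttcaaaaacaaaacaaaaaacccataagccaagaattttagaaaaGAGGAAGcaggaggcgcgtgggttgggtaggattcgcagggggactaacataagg
Hpgds: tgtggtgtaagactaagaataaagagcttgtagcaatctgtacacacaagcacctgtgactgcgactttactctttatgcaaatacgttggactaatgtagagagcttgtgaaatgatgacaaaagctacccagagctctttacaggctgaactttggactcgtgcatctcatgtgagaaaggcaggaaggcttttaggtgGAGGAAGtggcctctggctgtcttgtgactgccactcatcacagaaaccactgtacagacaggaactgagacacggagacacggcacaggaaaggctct
Ltc4s: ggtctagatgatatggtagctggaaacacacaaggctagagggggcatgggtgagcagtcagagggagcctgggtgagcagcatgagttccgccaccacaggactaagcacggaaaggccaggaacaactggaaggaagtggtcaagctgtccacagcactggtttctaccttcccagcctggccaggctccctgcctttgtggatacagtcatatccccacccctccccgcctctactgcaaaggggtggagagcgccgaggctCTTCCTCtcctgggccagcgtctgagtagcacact
Ptgs2: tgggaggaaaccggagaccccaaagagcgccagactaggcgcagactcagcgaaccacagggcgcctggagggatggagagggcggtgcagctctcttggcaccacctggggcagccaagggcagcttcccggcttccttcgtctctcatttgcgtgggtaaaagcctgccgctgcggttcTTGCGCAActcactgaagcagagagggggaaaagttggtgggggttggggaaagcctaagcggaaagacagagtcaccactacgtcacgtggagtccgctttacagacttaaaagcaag
GAGGAAG began 5 bases before the start in Pla2g2d, 49 bases before it in Hpgds and, on the opposite strand, 15 bases after it in Ltc4s. It was also in the window of Tbxas1, 20 bases before the start on the opposite strand, and so in 4 of the 8 measured members that the table holds, against 13.6% of all 32851 windows. TTGCGCAA was in the Ptgs2 window, 69 bases before the start, and in 0.183% of all windows. Other letters were searched and are not marked. The GC box GGGCGG was in 3 of the 8 members, against 35.7% of all windows. The AP-1 site TGANTCA was in 1 (7.81% of windows), and the E-box CACGTG was in 1 (7.15%). Members were counted as genes, while the shares are of windows. No marked match overlapped another. The motifs were chosen after the windows had been seen, and a match describes letters only.

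Pla2g2d encodes a secreted phospholipase A2. Its level was 12.19, 12.02 and 12.17 in TZM, 5.35, 5.18 and 5.30 in microglia, and 4.38, 5.07 and 4.66 in DC. The TZM arrays lay far above all others, and microglia and DC arrays did not overlap but were close. The log2 difference was 7.42 (SE 0.15) between TZM and DC, or 172-fold, and 6.85 (SE 0.15) between TZM and microglia, or 116-fold. The log2 difference of microglia from DC was 0.57 (SE 0.15). The array values carried no detection call, and levels such as those in microglia and DC, near the median of all gene values (4.96), are not separated from background, which would make the folds of TZM understate the difference. No order is read between microglia and DC.

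Some markers of other lymph node cells moved with Pla2g2d. The mean of 5 stroma markers ran from 6.48 to 6.54 in TZM, from 5.22 to 5.29 in microglia and from 5.34 to 5.47 in DC, and 2 of the 5 were called higher in TZM in both comparisons. These were the chemokine genes Cxcl13, at 8.33 ± 0.34 in TZM, 5.01 ± 0.08 in microglia and 4.90 ± 0.18 in DC, and Ccl19, at 8.68 ± 0.19, 5.78 ± 0.18 and 6.97 ± 0.19. The collagen gene Col3a1 had means from 5.08 to 5.21 and was not called. The mean of 5 endothelial markers ran from 4.61 to 4.68 in TZM, from 4.54 to 4.67 in microglia and from 4.17 to 4.27 in DC. Of these Cdh5, the cadherin of endothelial junctions, was at 7.65 ± 0.11 in TZM, 5.24 ± 0.08 in microglia and 5.38 ± 0.15 in DC. It was called higher in TZM in both comparisons, while the tight junction gene Cldn5 had means from 4.63 to 4.77 and was not called. Prox1 went the other way against microglia, at 3.74 ± 0.11 in TZM, 5.48 ± 0.20 in microglia and 3.76 ± 0.07 in DC. It was called lower in TZM than in microglia. Tek, with means from 3.69 to 3.79, and Emcn, with means from 3.44 to 3.74, were not called. Of 8 salivary gland genes 2 were called higher in TZM in both comparisons and 0 lower. Bpifa2 was at 10.51 ± 1.37 in TZM, 4.01 ± 0.09 in microglia and 4.03 ± 0.38 in DC. Smr3a was at 9.34 ± 1.02, 3.16 ± 0.02 and 3.28 ± 0.05 in the same order. Of 8 neutrophil markers S100a8 and S100a9 were also called higher in both, and 0 were lower. The part of any of these cells in the levels of Pla2g2d and of Alox5ap was not tested.

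Pla2g4a encodes the cytosolic phospholipase A2 that favours arachidonic acid. It had levels of 8.53, 8.29 and 8.68 in TZM, 8.29, 8.37 and 8.34 in microglia, and 5.83, 5.96 and 5.16 in DC. TZM and microglia arrays overlapped, with a log2 difference of 0.16 (SE 0.20), and both lay above every DC array. TZM exceeded DC by 2.85 (SE 0.20), or 7.21-fold, and microglia exceeded DC by 2.69 (SE 0.20), or 6.44-fold.

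The first steps of the leukotriene route ran in different directions. Alox5ap, the partner protein of the lipoxygenase, was at 7.49, 7.84 and 7.84 in TZM, at 10.76, 10.79 and 10.79 in microglia, and at 11.06, 10.98 and 11.12 in DC. All TZM arrays were below all others, by 3.06 (SE 0.10) against microglia, an 8.34-fold difference, and by 3.33 (SE 0.10) against DC. Microglia differed from DC by -0.27 (SE 0.10), a small gap between arrays that did not overlap.

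Alox5 itself was at 4.84, 4.44 and 4.84 in TZM, at 6.60, 6.78 and 6.99 in microglia, and at 4.15, 4.54 and 4.32 in DC. Microglia arrays stood above the rest, and TZM and DC arrays overlapped. The log2 difference of TZM was -2.08 (SE 0.15) from microglia and 0.37 (SE 0.15) from DC, and that of microglia from DC was 2.45 (SE 0.15), or 5.47-fold. TZM and DC levels of Alox5 were below the median of all gene values (4.96) and are not separated from background, so no order is read between them.

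The 2 branches that follow also differed. Ltc4s, which conjugates glutathione to the lipoxygenase product, was at 5.43, 5.99 and 5.94 in TZM, at 9.46, 9.79 and 9.63 in microglia, and at 5.63, 5.60 and 5.55 in DC. The microglia arrays stood above all others, and TZM and DC arrays overlapped. TZM differed from microglia by -3.84 (SE 0.15), a 14.3-fold gap, and from DC by 0.19 (SE 0.15), and microglia exceeded DC by 4.03 (SE 0.15), or 16.4-fold. Of 7 mast cell markers, a cell type rich in this synthase, 0 reached a mean level of 6, a working mark used for all marker lists here, in TZM or microglia and 1, Kit, did so in DC, at 9.19 ± 0.13. The mean of that list ran from 4.08 to 4.34 in TZM, from 3.76 to 3.80 in microglia and from 4.36 to 4.40 in DC. The mast cell protease gene Mcpt4 was called higher in TZM, at 4.35 ± 0.15, against 3.27 ± 0.04 in microglia and 3.26 ± 0.12 in DC, and Cpa3, at 4.06 ± 0.31, 3.46 ± 0.04 and 3.36 ± 0.10, was not called. The part of mast cells in the Ltc4s level was not tested.

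Lta4h, the hydrolase of the other branch, was at 5.81, 6.77 and 5.90 in TZM, at 5.56, 5.69 and 5.77 in microglia, and at 5.58, 5.76 and 5.76 in DC. TZM replicate 2 was above every other array, and the remaining TZM arrays lay just above the highest array of the other populations. The log2 difference of TZM was 0.49 (SE 0.23) from microglia and 0.46 (SE 0.23) from DC. Without TZM replicate 2 these were 0.18 and 0.16. The same array had the highest levels of the neutrophil genes S100a8, at 5.89, 9.28 and 7.32 in TZM replicates 1 to 3, and S100a9, at 6.21, 9.39 and 7.89. Of 8 neutrophil markers, these 2 reached a mean of 6 in TZM and 0 did so in microglia or DC, while the defining marker Ly6g was at 3.16 ± 0.06 in TZM. Among the TZM arrays, 3 of the 8 were highest in replicate 2 and 4 in replicate 3. The mean level of the list ran from 4.63 to 5.64 in TZM, from 4.05 to 4.15 in microglia and from 4.16 to 4.26 in DC. Of 8 salivary gland genes 5 were highest in TZM replicate 2, among them Smr3a at 9.19, 10.42 and 8.41, and 1 was lowest there. The mean of the 8 salivary genes ran from 5.33 to 6.61 in TZM, from 3.75 to 3.86 in microglia and from 3.84 to 3.98 in DC. The part of these cells in the Lta4h level was not tested. In bulk RNA, fewer cells of a type and less RNA per cell cannot be told apart.

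Ptgs2, the inducible cyclooxygenase, was at 8.47, 8.82 and 8.24 in TZM, at 8.08, 6.52 and 8.14 in microglia, and at 8.33, 7.90 and 8.28 in DC. Every TZM array was above every microglia array, and the DC arrays overlapped both. Microglia replicate 2 was the low array. TZM exceeded microglia by 0.93 (SE 0.40) and DC by 0.34 (SE 0.40), and microglia differed from DC by -0.59 (SE 0.40). Without microglia replicate 2 the difference of TZM from microglia was 0.40, and that of microglia from DC was -0.06.

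That microglia array was also low in markers of the choroid plexus and of macrophages at the brain's borders. Ttr, a choroid plexus product, was at 4.23 ± 0.20 in TZM, at 12.15, 5.48 and 11.83 in microglia replicates 1 to 3, and at 4.18 ± 0.10 in DC. Mrc1, a border macrophage marker, was at 8.96, 7.21 and 8.54 in microglia, and Pf4 was at 9.11, 7.05 and 8.72. The mean of 5 choroid plexus genes ran from 4.20 to 4.57 in TZM, from 4.60 to 6.64 in microglia and from 4.13 to 4.37 in DC, and 2 of them, Ttr and Kcnj13, reached 6 in microglia against 0 elsewhere. For 5 border macrophage genes the mean ran from 6.02 to 6.33 in TZM, from 5.80 to 7.20 in microglia and from 4.25 to 4.35 in DC. Their part in the Ptgs2 level was not tested.

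**Figure D2:**
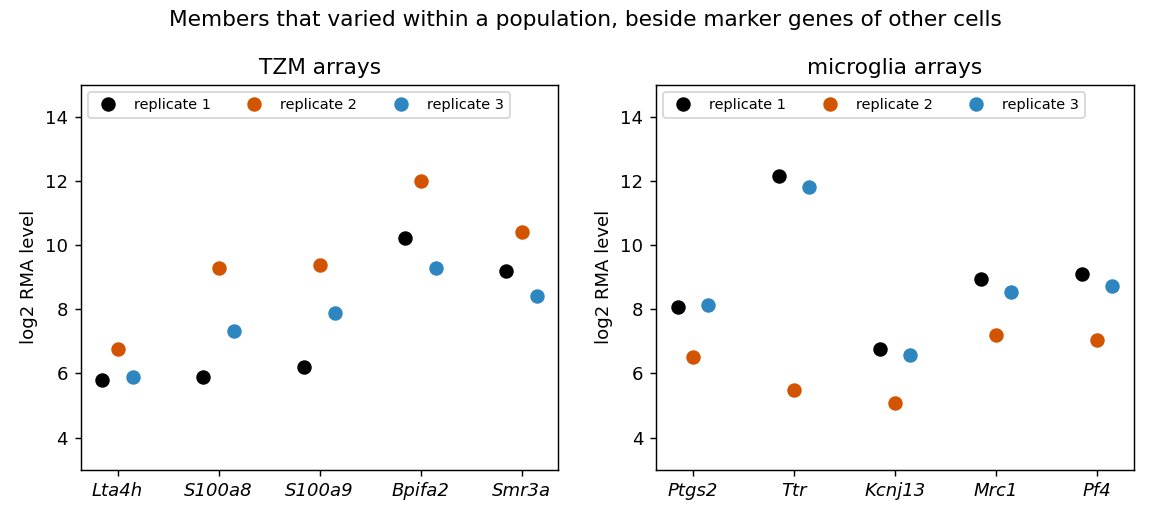
Log2 RMA level in each TZM array (left) of Lta4h beside 2 neutrophil and 2 salivary gland genes, and in each microglia array (right) of Ptgs2 beside 2 choroid plexus and 2 border macrophage genes, picked after their values were seen. Replicate 2 is the highest TZM array for each gene on the left and the lowest microglia array for each gene on the right.

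Both members at the end of the cyclooxygenase route, Hpgds and Tbxas1, were highest in microglia. Hpgds, the prostaglandin D synthase of blood-derived cells, was at 10.02, 9.94 and 9.85 in TZM, at 11.22, 11.01 and 11.16 in microglia, and at 6.03, 5.35 and 5.47 in DC. The 3 populations did not overlap in any pair. TZM differed from DC by 4.32 (SE 0.16), or 20.0-fold, and from microglia by -1.19 (SE 0.16), and microglia differed from DC by 5.52 (SE 0.16), or 45.8-fold.

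Tbxas1, the thromboxane synthase, was at 7.50, 7.56 and 7.50 in TZM, at 9.24, 9.28 and 9.27 in microglia, and at 7.11, 6.87 and 6.89 in DC. Again no pair of populations overlapped, and the SD within each was at most 0.14. The log2 difference of TZM was 0.56 (SE 0.07) from DC and -1.74 (SE 0.07) from microglia, and that of microglia from DC was 2.30 (SE 0.07), or 4.94-fold. Thromboxane synthase is abundant in platelets, and of 5 measured platelet and megakaryocyte markers 0 reached a mean of 6 in TZM, while Gp9 and Treml1 did so in microglia and in DC. Treml1 was at 5.99 ± 0.18 in TZM, 6.51 ± 0.16 in microglia and 6.02 ± 0.14 in DC. Its TZM and DC means lay on either side of that mark, and it was not called. Ppbp, highest in TZM, was at 3.68 ± 0.19, 3.30 ± 0.21 and 3.53 ± 0.01 in the same order and was not called. The mean of that list ran from 4.84 to 4.96 in TZM, from 5.28 to 5.37 in microglia and from 5.02 to 5.10 in DC, with Itga2b at 4.69 ± 0.11, 4.70 ± 0.14 and 4.64 ± 0.03. Gp9, a subunit of the platelet receptor for von Willebrand factor, was at 5.45 ± 0.25 in TZM, 7.48 ± 0.29 in microglia and 6.49 ± 0.25 in DC, and was called lower in TZM than in microglia (log2 difference -2.02, limma adjusted p = 0.00012) and than in DC (-1.03, adjusted p = 0.0049). The part of platelets in the Tbxas1 level was not tested.

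Counted by the rule used for all genes (limma adjusted p under 0.05 and a log2 difference of at least 1), 4 of 9 members passed between TZM and DC, 3 higher and 1 lower, where 8.74% of all genes passed, 4.71% higher and 4.03% lower. Between TZM and microglia 6 passed, 1 higher and 5 lower, where 7.65% of all genes passed, 4.25% higher and 3.4% lower. Between microglia and DC 5 passed, 5 higher and 0 lower, where 11.2% of all genes passed, 5.15% higher and 6.01% lower. Arrays of the compared populations did not overlap for 6, 8 and 7 members in these comparisons, against 32.3%, 30.5% and 37.8% of all genes. The median log2 difference over the members was 0.46, -1.19 and 2.30, beside 0.02, 0.01 and 0.01 over all genes. Because the members were picked with these comparisons known, and each population's arrays enter 2 of them, nothing is read from these counts.

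**Figure D3:**
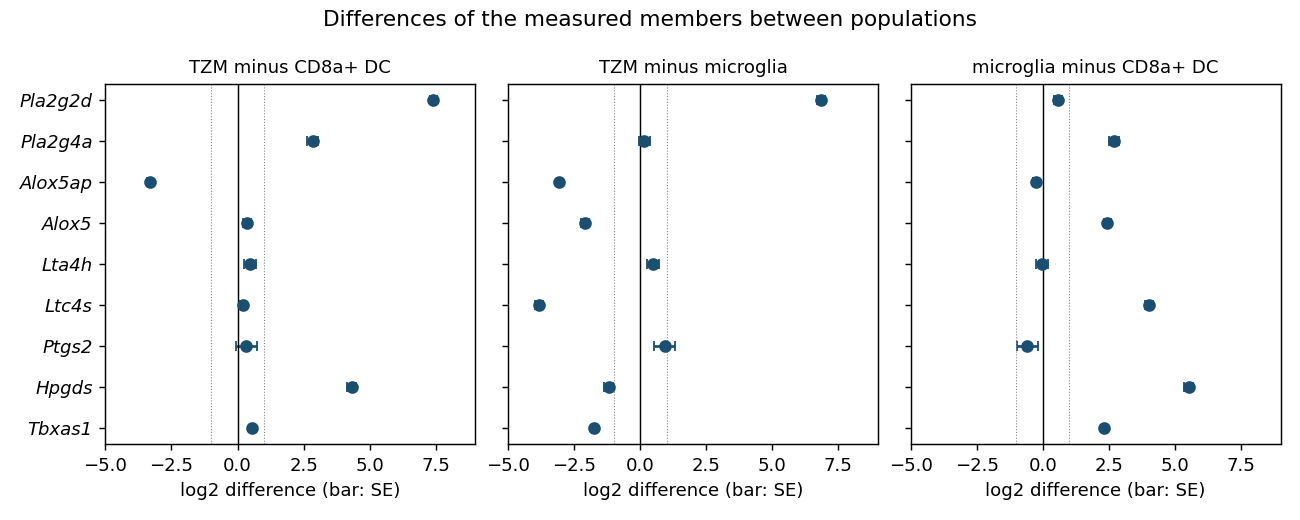
Log2 difference (point) and SE (bar) of the 9 measured members for TZM minus CD8a+ DC, TZM minus microglia and microglia minus CD8a+ DC, with dotted lines at -1 and 1. Pla2g2d lies at 7.42, 6.85 and 0.57 in these panels, and Alox5ap at -3.33, -3.06 and -0.27.

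Members grouped by their pattern over the 9 arrays, a description in which arrays of 1 population share their source. Alox5, Ltc4s and Tbxas1 had Pearson correlations of 0.975 to 0.976 with each other, and Pla2g4a and Hpgds had one of 0.952. Pla2g2d and Alox5ap mirrored each other, at -0.998. The genes most like a member among 1108 with population means at least 2 apart were, for Pla2g2d, the transglutaminase gene Tgm1 (r = 0.9985), Vat1 (0.9985) and Sorbs3 (0.9974). For Alox5ap they were Hhex, a transcription factor (0.9876), Sla, an adaptor of antigen receptor signalling (0.9847), and the immediate early gene Nr4a1 (0.9846). For Pla2g4a they were Ifi27, Zeb2os and Sirpa, an inhibitory receptor of myeloid cells (0.9912 to 0.9952), and for Hpgds they were the collagen receptor Lair1, the cytokine gene Il1a and Abi3 (0.9970 to 0.9991). The microglia-high members had other neighbours: Tspan18, Tmem204 and the sialyltransferase St3gal6 for Alox5 (0.9909 to 0.9920), Atp8a2, Sgce and Crybb1 for Ltc4s (0.9945 to 0.9956), and Golm1, Prag1 and Myl2 for Tbxas1 (0.9937 to 0.9968).

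The rest of the pathway was read from a list of 81 further genes of eicosanoid synthesis, breakdown and reception, of which 76 were measured. Here the differences were tested, with limma adjusted p-values over all genes. Between TZM and DC 11 were higher and 4 lower (19.7% of the 76, against 8.74% of all genes), and between TZM and microglia 6 were higher and 5 lower (14.5%, against 7.65%). Between microglia and DC 13 were higher and 4 lower (22.4%, against 11.2%). The median log2 difference over the list was 0.08, -0.05 and 0.12. In all, 22 genes were called in at least 1 comparison. The list was drawn up with earlier results of these data known, so its shares are a description, and nothing particular to the list is read from them.

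Among 19 other phospholipases A2, Pla2g7, whose product hydrolyses platelet-activating factor and oxidised phospholipids, followed the pattern of Pla2g2d. It was at 10.28 ± 0.24 in TZM, 5.66 ± 0.58 in microglia and 5.19 ± 0.28 in DC (log2 difference of TZM 5.09 from DC, adjusted p = 3.5e-06, and 4.61 from microglia, adjusted p = 8.1e-06). The lysosomal phospholipase gene Pla2g15 was higher than in DC in TZM by 2.97 (adjusted p = 0.0002) and in microglia by 3.60 (adjusted p = 4.5e-05). Plaat3, which encodes a phospholipase of another family, was lower than in DC by 1.10 in TZM (log2 difference -1.10, adjusted p = 0.00053) and by 3.45 in microglia (-3.45, adjusted p = 3.7e-07), and higher in TZM than in microglia by 2.35 (adjusted p = 6.5e-06). Pnpla8, a calcium-independent phospholipase gene, was higher in TZM than in microglia by 1.12 (adjusted p = 0.0051), and by 0.94 without microglia replicate 2, below the minimum size. The secreted relatives Pla2g2a, Pla2g2e, Pla2g2f and Pla2g5 had means from 3.74 to 5.32 in all populations and were not called.

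Genes for the release and return of arachidonate were called in 1 direction per comparison, 3 of 9 higher in TZM than in DC, 3 lower in TZM than in microglia and 5 higher in microglia than in DC. Of all genes 4.71%, 3.4% and 5.15% were called in these directions, and nothing is read from the counts. Lpcat2 and Lpcat3, acyltransferases that rebuild phospholipids, were higher than in DC by 3.51 (adjusted p = 4.1e-06) and 1.56 (7.0e-06) in TZM, and by 4.36 (8.1e-07) and 2.11 (8.3e-07) in microglia. Dagla and Daglb, diacylglycerol lipases, had log2 differences of -1.70 (adjusted p = 0.00037) and -1.11 (0.0095) between TZM and microglia, as did Mgll, the monoacylglycerol lipase that frees arachidonate in the brain, at -1.06 (0.0026). Daglb without TZM replicate 2 stood at -0.83, and Mgll without microglia replicate 1 at -0.95, below the minimum size.

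Downstream of the cyclooxygenases, Prxl2b, which encodes an F-type prostaglandin synthase, was at 10.10 ± 0.63 in TZM, 7.29 ± 0.02 in microglia and 5.74 ± 0.23 in DC (log2 difference of TZM 4.36 from DC, adjusted p = 8.2e-06, and 2.81 from microglia, adjusted p = 0.00014), and microglia exceeded DC by 1.55 (adjusted p = 0.0031). The carbonyl reductase gene Cbr1 was higher in TZM than in DC by 1.36 (adjusted p = 0.0089), and Ptgis, the prostacyclin synthase, had a log2 difference of -1.32 there (adjusted p = 0.00013) and of -1.23 between microglia and DC (0.00015). The E-type synthase genes Ptges and Ptges2 had means from 3.72 to 4.67 and were not called, nor was Ptges3, at 9.59 ± 0.40 in TZM, 9.89 ± 0.07 in microglia and 10.22 ± 0.10 in DC. Hpgd, which inactivates prostaglandins, was at 10.04 ± 0.57 in TZM, 11.24 ± 0.09 in microglia and 6.86 ± 0.43 in DC, and so was higher than in DC by 3.18 in TZM (adjusted p = 8.4e-05) and by 4.38 in microglia (adjusted p = 8.4e-06). Its difference of -1.20 between TZM and microglia (adjusted p = 0.021) was not called without TZM replicate 2 (-0.89, adjusted p = 0.033) or without any 1 of the microglia arrays (adjusted p = 0.051 to 0.070). The epoxide hydrolase gene Ephx1 was higher in TZM than in DC by 2.09 (adjusted p = 0.00029) and than in microglia by 1.42 (0.0030), and in microglia Cyp4f13 and Ptgr1 were higher than in DC by 1.31 (0.0044) and 1.08 (0.0056). Ptgr1 was below the minimum size without DC replicate 1 (0.99) or microglia replicate 3 (0.85).

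Of 13 other lipoxygenase and leukotriene genes, Mgst1, a microsomal glutathione transferase of the same family as Ltc4s and Alox5ap, was higher in TZM than in DC by 3.52 (adjusted p = 3.7e-08) and than in microglia by 3.33 (adjusted p = 4.5e-08). Its levels of 3.34 ± 0.13 in microglia and 3.16 ± 0.06 in DC were near the 5th percentile of all gene values (3.13) and are not separated from background, which would make these differences too small. Ggt5, which trims cysteinyl leukotrienes, was higher in microglia than in DC by 1.14 (adjusted p = 0.0039), and by 0.90 without microglia replicate 2. The lipoxygenases Alox12 and Alox15 had means from 3.53 to 3.88 and were not called.

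Of 9 prostanoid receptors, Ptger4, a receptor for E-type prostaglandin, was at 6.72 ± 0.19 in TZM, 6.10 ± 0.74 in microglia and 8.91 ± 0.15 in DC, with log2 differences of -2.19 between TZM and DC (adjusted p = 0.0012) and -2.81 between microglia and DC (adjusted p = 0.0002), and 8 were not called in any comparison. Cysltr1, the main receptor for cysteinyl leukotrienes, was at 5.60, 6.54 and 5.88 in TZM, 9.11, 9.41 and 9.23 in microglia and 6.22, 5.45 and 5.55 in DC, high in the same population as Ltc4s (log2 difference of TZM -3.25 from microglia, adjusted p = 5.1e-05, and of microglia 3.51 from DC, adjusted p = 1.9e-05). Cmklr1, a chemerin receptor also linked to a lipid ligand, was higher than in DC by 4.83 in TZM (adjusted p = 1.6e-07) and by 4.54 in microglia (1.3e-07). Gpr18 had log2 differences of -1.33 between TZM and DC (adjusted p = 2.3e-05) and -2.18 between microglia and DC (8.3e-07).

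**Figure D4:**
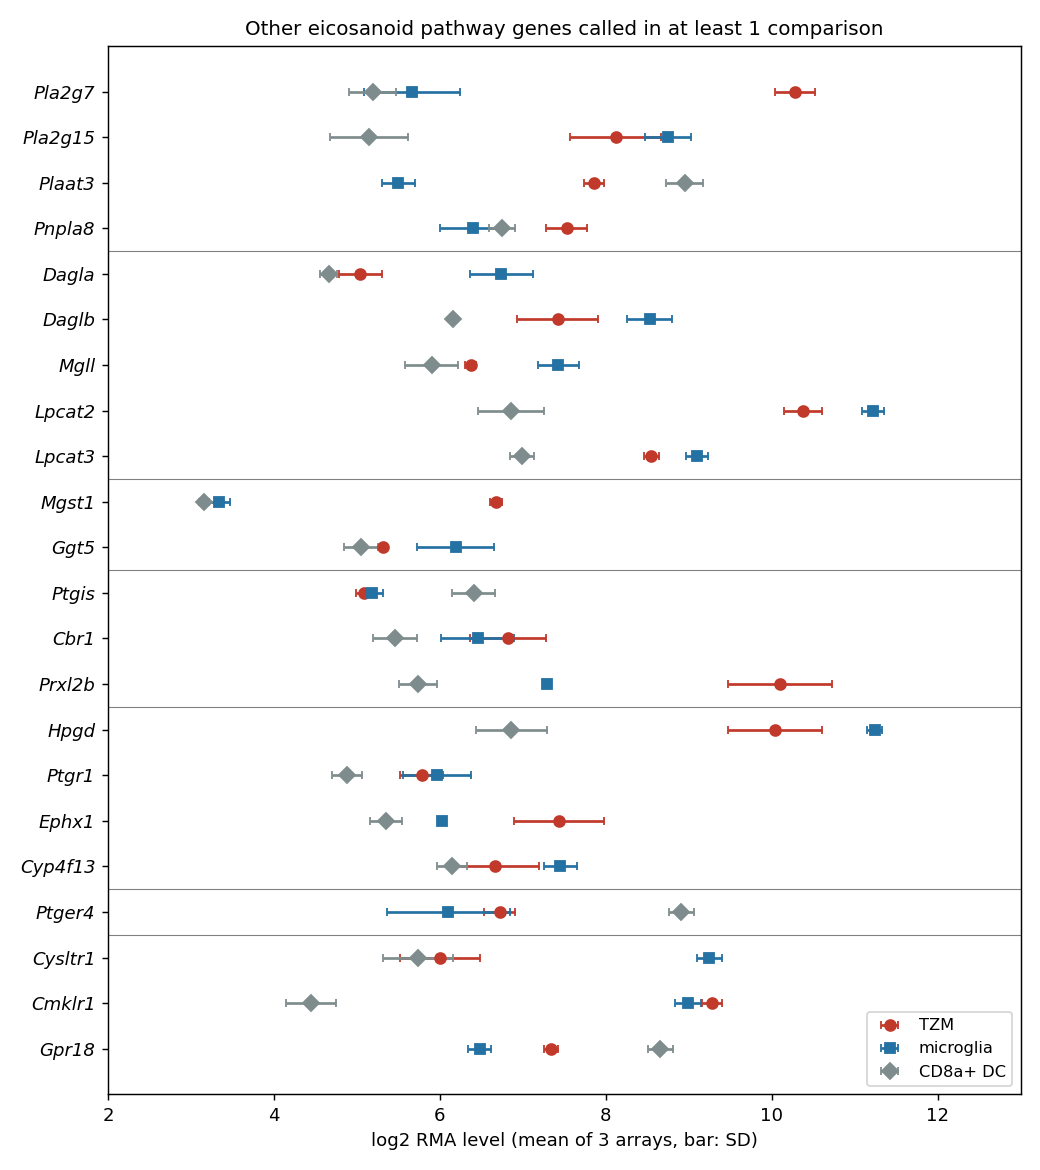
Mean log2 RMA level (symbols) and SD (bars) over 3 arrays of the 22 other pathway genes called in at least 1 comparison, for TZM, microglia and CD8a+ DC, with lines between roles. Pla2g7, Mgst1 and Prxl2b are highest in TZM, Cysltr1 is highest in microglia, and Ptger4 is highest in DC.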

How the data were processed

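The authors deposited 1 table of log2 levels for 35556 probe sets and 9 samples, made with Affymetrix Expression Console 1.3.1 and RMA per the submitters' processing notes. RMA scales the arrays to each other, so levels are relative within the set and low levels are compressed. Values ran from 2.04 to 13.61, and array medians over genes from 4.90 to 5.02. The number of arrays limits the precision. In the platform annotation 21789 probe sets had 1 gene symbol, 1621 had several and 12146 had none. Current names came from RefSeq (GRCm38.p6), where 21698 of the single-symbol probe sets had an Entrez match, and the probe set with the highest mean was kept per gene. Differences were fitted with limma 3.58.1 in R 4.3.3 (lmFit, eBayes, population as the only term), with Benjamini-Hochberg adjustment over 19938 genes, after the fit was tested on simulated data. The labels call the samples biological replicates. Same-numbered arrays of different populations did not deviate together (correlations of deviations from -0.145 to 0.128), so the numbers were not used as pairs. Members and lists were chosen with earlier results of these data known. Of the other pathway genes, up to 4 called genes per role and comparison were named, by size of difference, and relatives of members that were not called were named after their values were seen. Marker genes were named where their list, or genes of it, moved with a member, after their values were seen, and the 3 most alike genes were named per member with means at least 2 apart, passing over predicted genes, clones and small RNAs. Alternatives covered the minimum difference, a level filter (at least 6 in at least 3 arrays), centring, quantile normalization, probe sets, samples in the fit, the variance model, array weights, the replicate block and each array left out.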

Additional observations from a re-analysis of the deposited data

How the results depend on the processing

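Counts of other pathway genes called stayed within 1.5 times under 18 of 19 settings for TZM against DC and for TZM against microglia, and under 19 of 19 for microglia against DC. With no minimum difference they were 28 (20 higher, 8 lower) for TZM against DC and 20 (11 higher, 9 lower) for TZM against microglia, since smaller differences then count. With each array left out in turn they ran from 15 to 17, from 9 to 11 and from 16 to 18 in the 3 comparisons, in the order TZM against DC, TZM against microglia, microglia against DC. With the replicate block they were 15, 11 and 17, as without it, and no count of members changed. Of 796 repeats of the 42 named tests, 786 kept their call, 10 lost it and 0 changed direction. The members' counts were the same, at 4, 6 and 5, under centring, quantile normalization, the mean of probe sets, array weights, the block and each array left out. Of 378 recomputed member differences 1 moved by more than the larger SD of the compared populations, that of Tbxas1 between TZM and microglia (-1.85 with quantile normalization). Most of these repeats could not pass that mark. Leaving out 1 of 3 arrays always shifts a mean by less than the SD of its population. The mean of probe sets and the balanced block leave the differences as they were, since each member had 1 probe set. Only centring, quantile normalization and array weights could have moved a difference so far. The largest shift was 0.53, for Ptgs2 without microglia replicate 2. The SD of Ptgs2 in microglia, 0.92, includes that array, so the count does not show that a difference is stable to an outlying array. The difference of Lta4h between microglia and DC was -0.03, and 0.03 without microglia replicate 1. Low array levels, not separated from background, limit what can be said of Pla2g2d, Alox5 and Mgst1 in the populations where they are low. Without a detection call this may also hold for Pla2g4a and Hpgds in DC, at 5.65 ± 0.43 and 5.61 ± 0.36. Ltc4s was at similar levels, 5.79 ± 0.31 in TZM and 5.59 ± 0.04 in DC, so the folds of these members may be too small. The same limit applies to other pathway genes called against a low level. Among them were Pla2g7 and Cmklr1 in DC, at 5.19 ± 0.28 and 4.45 ± 0.30, and Dagla in TZM, at 5.04 ± 0.26. Ptgis was also low, at 5.09 ± 0.10 in TZM and 5.18 ± 0.13 in microglia.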

Other observations

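Microglia replicate 2, the low array for Ptgs2, was also low for other genes of the prostaglandin pathway, though not for all. Ptgds, the other prostaglandin D synthase, known from brain membranes and choroid plexus, was at 5.10 ± 0.02 in TZM, at 7.24, 5.13 and 6.72 in microglia replicates 1 to 3, and at 4.98 ± 0.15 in DC. The receptor gene Ptger4 was at 6.35, 5.27 and 6.68 in the same arrays. Cbr1, at 6.59, 5.97 and 6.82, was lowest in replicate 2 as well, while Ptgis, at 5.11, 5.33 and 5.10, was highest there. Hpgds, at 11.22, 11.01 and 11.16, and Tbxas1, at 9.24, 9.28 and 9.27, varied far less over these arrays, although Hpgds was also lowest in replicate 2. These genes were picked after their values were seen.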
